A study of Mus musculus with 6 samples.

Results

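Glycolysis and the hypoxia response were followed through 34 genes in mouse tubular epithelial cells given lipopolysaccharide (LPS) and transfected with a negative control or with an RNA directed against the transcription factor Stat3. The genes were those whose symbols in the GENCODE M21 annotation match a set of glycolytic enzymes, their regulators and targets of the hypoxia-inducible factor (HIF). They occupied 35 of the 22442 rows of the expression table, because Aldoa has 2 rows, ENSMUSG00000030695 and ENSMUSG00000114515. They fell into 17 enzymes that carry glucose to lactate, 3 regulators of glycolytic flux, 4 HIF subunits or prolyl hydroxylases, and 10 other HIF targets.

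The libraries were made from mTECs, described in the methods as an immortalised murine renal tubular line and in the sample labels as magnetically sorted cells. All 6 cultures received LPS, a bacterial cell wall component, at 20 μg/ml for 24 h. In 3 of them a negative control was transfected first, and in the other 3 an RNA against Stat3, which is an siRNA in the labels. No library without LPS and none from a hypoxic culture was analysed here, so the values compare the labelled groups within LPS-treated cells only. Nothing in the labels says whether the 3 replicates of a group were independent cultures, and p-values measure the spread between these libraries, which may be technical.

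Stat3 itself did not separate the groups. Its level was 34.6, 31.4 and 35.2 FPKM (fragments scaled to gene length and library total) in the libraries labelled LPS. It was 30.8, 35.2 and 34.3 FPKM in the libraries labelled LPSKD, those given the RNA against Stat3, a log2 fold change of −0.01 (exact permutation test, two-sided, p = 0.7, where 0.1 is the smallest p that 3 against 3 allows). Every direction given here therefore rests on the labels. The libraries held 24084827 to 25422171 fragments on genes. Of 18 markers of tubular epithelium, 11 passed the filter on low values, 4 of them were higher by limma in the libraries labelled LPSKD (Pax2, Pax8, Cdh16 and Aqp1) and 1 was lower (Krt18). The share called was 45.5% of the 11, against 3.23% of all tested genes. Groups did not overlap for 63.6% of the 11, against 23.8% of all tested genes. With each library left out in turn, Pax2 and Pax8 were called in 6 of 6 fits, Cdh16 in 4, Aqp1 in 3 and Krt18 in 1, with adjusted p of up to 0.159 by limma for Krt18. Pax8, Cdh16, Aqp1 and Krt18 also lost the call in at least 1 alternative fit of all libraries. The segment markers Slc34a1, Umod, Aqp2 and Calb1 were at 0 in every library and Lrp2 had at most 3 fragments, while Krt8, Krt18, Epcam and Cdh1 were abundant. Of 8 leukocyte markers 5 passed the filter, 1 had a higher and 4 had lower means, and their median log2 fold change was −0.18. The share called was 20% of the 5. Csf1r rose (log2 fold change 0.45, adjusted p = 0.0208 by limma), a call kept in 2 of 6 omissions of a library, while Cd68, Adgre1 and Ptprc had log2 fold changes of −0.30, −0.39 and −0.18 that did not pass. The summed level of the list, of which Csf1r was the largest part, was 58.2 to 64.8 FPKM in the libraries labelled LPS and 61.4 to 74.8 FPKM in the others. In the same list Itgam and Cd3e had at most 6 fragments. No endothelial or fibroblast marker passed the test, and their summed levels were 2.67 to 5.21 and 23.4 to 30.1 FPKM in the libraries labelled LPS against 3.12 to 5.32 and 15.6 to 29.1 FPKM. In bulk RNA fewer cells of a kind and less transcript per cell cannot be told apart, and the part of these markers in the results was not tested.

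Glycolysis splits glucose into pyruvate and regains ATP without oxygen, and lactate dehydrogenase then turns pyruvate into lactate. HIF is a pair of proteins whose alpha subunit is hydroxylated and destroyed when oxygen is present. When oxygen is scarce, or when inflammatory signals raise its transcription, the alpha subunit persists, enters the nucleus and binds a short DNA core in the promoters of many glycolytic genes. Proximal tubule cells of the healthy kidney rely on oxidation of fatty acids, and a turn towards glycolysis is a known feature of injured tubules.

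The promoters of 4 members are printed because the HIF core stands in members that passed the test and in 1 whose log2 fold change was 0.00. P4ha1 and Pfkfb4 were the members that passed the test, Hk2 had the smallest p of the enzymes, and the first Ldha window held the most cores of any member window. Each is a window from 250 bases before to 50 bases after an annotated RefSeq start in GRCm38.p6, written 5′ to 3′ along the gene. Capitals mark the cores ACGTG and GCGTG on either strand, where CACGT and CACGC are their reverse complements and CACGTG holds ACGTG on both strands.
P4ha1, chr10:59323046-59323345, plus strand: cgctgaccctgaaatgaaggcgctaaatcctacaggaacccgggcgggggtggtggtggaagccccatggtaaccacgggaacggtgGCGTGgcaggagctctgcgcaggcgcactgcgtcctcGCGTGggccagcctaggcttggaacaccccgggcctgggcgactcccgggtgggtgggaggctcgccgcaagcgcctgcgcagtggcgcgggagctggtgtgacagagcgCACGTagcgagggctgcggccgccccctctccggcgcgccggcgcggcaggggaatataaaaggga
Pfkfb4, chr9:108991652-108991951, plus strand: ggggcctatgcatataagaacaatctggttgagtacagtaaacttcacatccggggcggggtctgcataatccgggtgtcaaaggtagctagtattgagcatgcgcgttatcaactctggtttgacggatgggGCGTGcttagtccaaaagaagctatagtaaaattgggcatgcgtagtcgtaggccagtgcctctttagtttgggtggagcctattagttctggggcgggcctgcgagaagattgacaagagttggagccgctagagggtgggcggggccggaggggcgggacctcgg
Hk2, chr6:82774405-82774704, minus strand: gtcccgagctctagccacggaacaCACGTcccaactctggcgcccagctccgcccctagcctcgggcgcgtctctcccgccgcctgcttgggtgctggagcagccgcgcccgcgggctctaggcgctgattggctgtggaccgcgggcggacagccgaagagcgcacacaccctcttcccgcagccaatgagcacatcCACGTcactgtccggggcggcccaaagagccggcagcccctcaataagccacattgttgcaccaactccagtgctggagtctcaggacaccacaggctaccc
Ldha, chr7:46845554-46845853, plus strand: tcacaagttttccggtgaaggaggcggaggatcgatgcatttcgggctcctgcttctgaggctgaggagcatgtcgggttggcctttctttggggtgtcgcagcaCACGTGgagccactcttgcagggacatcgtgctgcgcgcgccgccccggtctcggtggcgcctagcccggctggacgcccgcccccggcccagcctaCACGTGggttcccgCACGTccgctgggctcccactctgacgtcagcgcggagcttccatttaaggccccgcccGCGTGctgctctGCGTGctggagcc

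The window of P4ha1 held 3 matches to a core, that of Hk2 held 2 and that of Pfkfb4 held 1. Ldha held 7, and its log2 fold change between the groups was 0.00. RefSeq windows were found for 32 of the 34 members and numbered 50. A core of either kind was in 38 of the 50 windows (76%), against 43.8% of all 32851 windows. Per gene, 29 of the 32 members had a core in at least 1 window (90.6%), against 46.7% of all genes, which have fewer windows each. The members were gathered largely as HIF targets, so the share is no independent result. The Stat dimer motif TTCNNNGAA was in 3 of the 50 windows (6%), those being 1 each of Pfkm, Aldoc and Kdm3a, against 8.3% of all windows. None of the 4 printed windows holds it.

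Across all members the response was small and ran both ways. With limma on log2(FPKM + 0.1), 1 member rose (P4ha1, a collagen prolyl hydroxylase) and 1 fell (Pfkfb4, a kinase and phosphatase that sets the level of fructose 2,6-bisphosphate). That is 2 of the 34 rows tested (5.88%), beside 379 of all 11723 tested genes (3.23%), of which 1.57% rose and 1.66% fell. Eno2, the neuronal enolase, was the 1 member under the filter of a mean of 0.5 FPKM. The groups did not overlap for 13 of the 34 (38.2%), 8 higher and 5 lower in the LPSKD libraries, while 23.8% of all tested genes had groups apart, 10.6% higher and 13.2% lower. The median log2 fold change of the members was 0.04, against −0.01 for all tested genes, and single members ranged from −0.45 to 0.97. Together the members took 1.12% to 1.13% of the fragments in replicates 2 and 3 labelled LPS, 1.17% in replicate 1, and 1.17% to 1.18% in the LPSKD libraries.

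**Figure D1:**
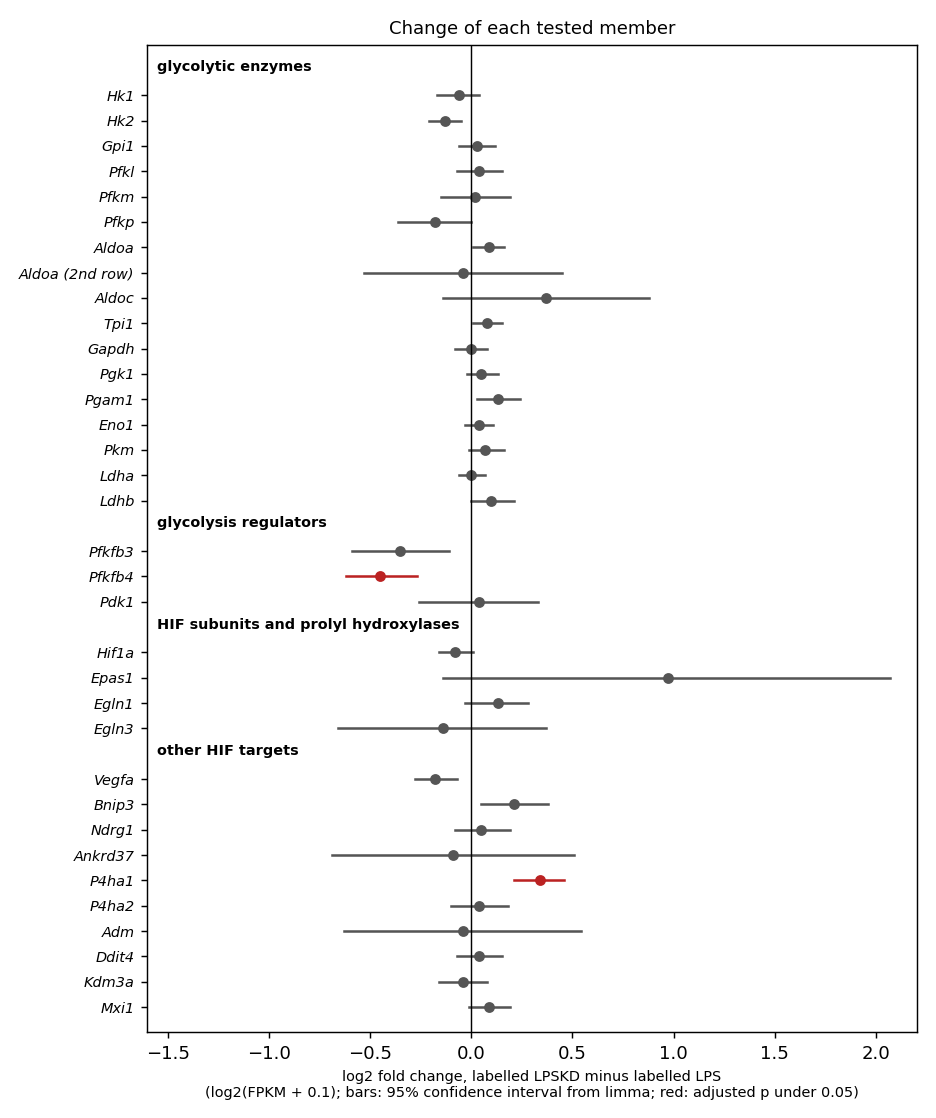
Log2 fold change of each of the 34 tested member rows, libraries labelled LPSKD minus libraries labelled LPS, grouped by role, with the 95% confidence interval from limma as bars. P4ha1 at 0.34 and Pfkfb4 at −0.45, in red, are the members with an adjusted p under 0.05, and the abundant enzymes lie close to 0 with short bars.

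P4ha1 (ENSMUSG00000019916, GRCm38 chromosome 10, 59323296 to 59373304) encodes the catalytic alpha subunit of the enzyme that hydroxylates proline in collagen, a step needed for a stable triple helix. Its level was 60.1, 64.6 and 60.7 FPKM in the libraries labelled LPS and 83.6, 76.3 and 74.2 FPKM in those labelled LPSKD, with 2482 to 3495 fragments a library. All 3 LPSKD libraries lay above all 3 LPS libraries. The means were 61.8 ± 2.43 (SD, n = 3) and 78 ± 4.93 FPKM (SD, n = 3), a rise of 26.2% with a 95% interval from 15.6% to 37.7% on the log2(FPKM + 0.1) scale. On the log2 scale this was 0.34 (standard error 0.06, adjusted p = 0.0156 by limma). The call was lost without replicate 3 labelled LPS (adjusted p = 0.0782 by limma), without replicate 1 labelled LPSKD (0.0527) and without replicate 2 of that group (0.053), with log2 fold changes of 0.28 to 0.37 over all 6 omissions. It was also lost without the variance trend in limma (adjusted p = 0.0839). Its sister P4ha2, the other inducible alpha subunit, stood at 32.8 ± 2.03 and 33.6 ± 1.37 FPKM (SD, n = 3 each) and had a log2 fold change of 0.04 and a 95% interval from −0.10 to 0.18. The interval of P4ha1, from 0.21 to 0.46, lay wholly above that of P4ha2, although the difference between the sisters was not tested.

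Pfkfb4 (ENSMUSG00000025648, chromosome 9, 108991778 to 109032228) and Pfkfb3 (ENSMUSG00000026773, chromosome 2, 11471433 to 11554077) make and remove fructose 2,6-bisphosphate, the strongest activator of phosphofructokinase. Pfkfb4 was at 16.7, 17.4 and 19.5 FPKM in the libraries labelled LPS and at 13, 12.8 and 13.4 FPKM in those labelled LPSKD. The groups were apart, and the LPSKD libraries were the tighter group. The means were 17.9 ± 1.46 and 13.1 ± 0.32 FPKM (SD, n = 3 each), so that Pfkfb4 fell by 26.7%, with a 95% interval from −34.9% to −17.3%. On the log2 scale this was −0.45 (standard error 0.08, adjusted p = 0.0179 by limma). This call was lost without replicate 3 labelled LPS, the highest library (adjusted p = 0.0717 by limma), and without replicates 1, 2 or 3 labelled LPSKD (0.0762, 0.0723 and 0.0625), with log2 fold changes of −0.49 to −0.38 over the 6 omissions. Without the variance trend in limma its adjusted p was 0.0578.

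Pfkfb3 was at 10.4, 11.5 and 10.7 FPKM in the libraries labelled LPS and at 9.2, 7.39 and 9.11 FPKM in those labelled LPSKD. The groups did not overlap here either, but the log2 fold change of −0.35 (95% interval −0.59 to −0.11) did not pass the adjustment (adjusted p = 0.137 by limma). The 2 other genes of the family, Pfkfb1 and Pfkfb2, had lower means in the LPSKD libraries, with log2 fold changes of −0.18 and −0.22 and adjusted p of 0.417 and 0.627 by limma. Pdk1, the kinase that switches off pyruvate dehydrogenase and so keeps pyruvate out of the mitochondria, was at 6.11, 5.21 and 6.25 FPKM against 5.16, 6.47 and 6.46 FPKM. Its groups overlapped, with a log2 fold change of 0.04 and a 95% interval from −0.26 to 0.33.

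**Figure D2:**
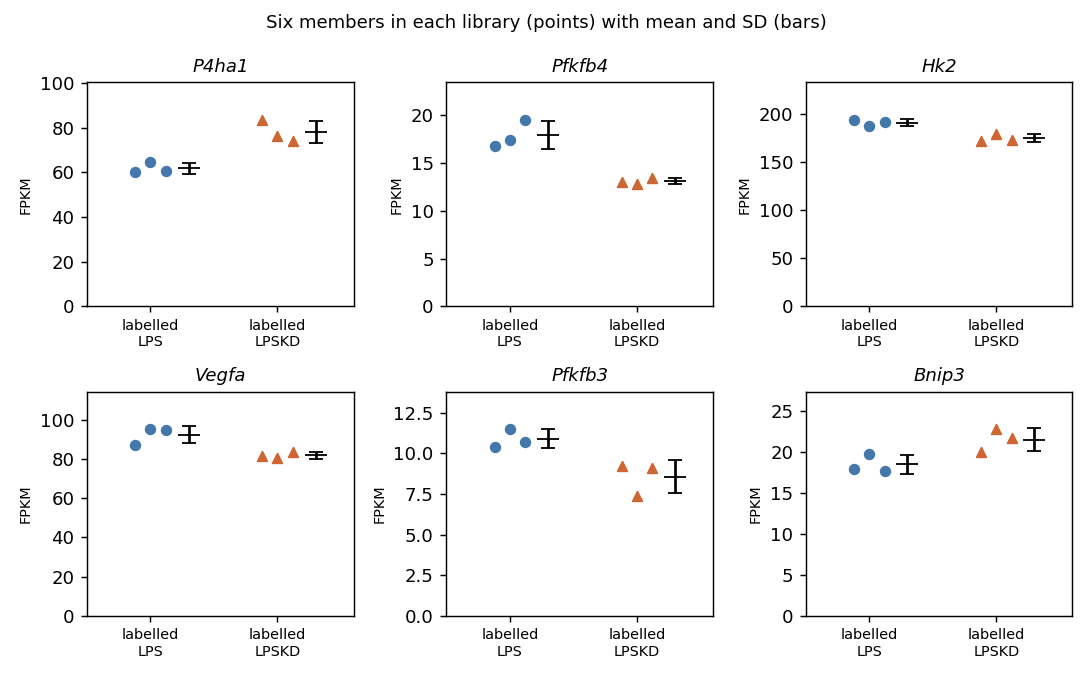
FPKM of P4ha1, Pfkfb4, Hk2, Vegfa, Pfkfb3 and Bnip3 in each library (points), with the mean and SD of each group of 3 as bars and axes that start at 0. In all 6 panels the groups do not overlap, because the 6 were taken from the 13 of 34 tested member rows with groups apart. That is 38.2% of the member rows, against 23.8% of all tested genes. P4ha1 and Pfkfb4 are the pair with an adjusted p under 0.05.

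The glycolytic enzymes ranged from Eno2, at 1 to 5 fragments a library, to Pkm, the most abundant member. None of their 17 tested rows passed the test (0%, against the 3.23% of all tested genes), and at an unadjusted p under 0.05 there were 3 higher (Pgam1, Aldoa, Tpi1) and 1 lower (Hk2). With voom on the recovered fragments 1 enzyme was called, Hk2. Their median log2 fold change was 0.04. The mean was higher in the LPSKD libraries for 13 rows and lower for 4, counts that became 10 and 7 after quantile normalization, where Gapdh, Pgk1, Eno1 and Ldha turned slightly negative. For the 13 rows with a mean of at least 50 FPKM, every 95% interval lay between −13.4% and 17.7%. All 17 enzymes together took 1.01% to 1.06% of the fragments in each library.

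Hexokinase traps glucose in the cell by phosphorylation, and Hk2 is the isozyme that HIF induces, whereas Hk1 is the housekeeping form. Hk2 (ENSMUSG00000000628, chromosome 6, 82725025 to 82774454) was at 194, 187 and 192 FPKM in the libraries labelled LPS and at 172, 179 and 173 FPKM in those labelled LPSKD. The groups were apart by a narrow margin. On the log2 scale the difference was −0.13 (standard error 0.03, adjusted p = 0.099 by limma), a difference of −8.53% with a 95% interval from −13.4% to −3.39%. Voom gave an adjusted p of 0.0335, the 1 call among 10 alternative fits of all libraries, where the adjusted p reached 0.229 by limma. Hk2 was not called in any of the 6 omissions of a library (adjusted p = 0.103 to 0.291 by limma). Hk1 stood at 116 ± 6.14 and 110.4 ± 2.54 FPKM (SD, n = 3 each) with overlapping groups and a log2 fold change of −0.06. Glucose phosphate isomerase, Gpi1, stood at 265 ± 11.8 and 271 ± 1.43 FPKM (SD, n = 3 each). The 3 phosphofructokinase genes commit the sugar to glycolysis. Pfkl, the liver type, was the most abundant at 76.4 ± 4.53 and 78.3 ± 0.478 FPKM, ahead of Pfkp, the platelet type, at 15.2 ± 1.17 and 13.4 ± 0.566 FPKM, and Pfkm, the muscle type, at 13.5 ± 0.917 and 13.7 ± 0.434 FPKM (SD, n = 3 each). Pfkp and Pfkm differed by less than their spread in the LPSKD libraries. Of the 3 genes, Pfkp had the largest difference (log2 fold change −0.18, 95% interval −0.36 to 0.00, adjusted p = 0.288 by limma).

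The steps from aldolase onwards held the most abundant members, Pkm, Eno1, Aldoa, Ldha and Pgk1, but also low rows. Aldoa, which splits fructose 1,6-bisphosphate, was at 886, 837 and 846 FPKM in the libraries labelled LPS and 911, 916 and 902 FPKM in those labelled LPSKD (log2 fold change 0.09, adjusted p = 0.223 by limma). Tpi1, triose phosphate isomerase, was at 563, 557 and 561 against 579.6, 612 and 586 FPKM (log2 fold change 0.08, adjusted p = 0.255 by limma). Pgam1, phosphoglycerate mutase, was at 382, 373 and 347 against 413, 389 and 406 FPKM (log2 fold change 0.13, adjusted p = 0.167 by limma). In these 3 genes each LPSKD library was above each LPS library, and none passed the adjustment. The same separation held for Pgk1, phosphoglycerate kinase, at 648 ± 4.97 and 672 ± 20.7 FPKM, and for Eno1, the ubiquitous enolase, at 1359 ± 22.9 and 1396 ± 13.4 FPKM (SD, n = 3 each). Of the 17 tested enzyme rows, 6 had groups apart (35.3%), 5 higher and 1 lower. Among all tested genes 23.8% had groups apart, 10.6% higher and 13.2% lower. After quantile normalization the log2 fold changes were −0.01 for Pgk1 and Eno1, 0.03 for Tpi1, 0.04 for Aldoa and 0.10 for Pgam1.

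Pkm, pyruvate kinase, was the most abundant member, at 1643, 1522 and 1554 FPKM in the libraries labelled LPS and 1631, 1680.3 and 1654 FPKM in those labelled LPSKD. The groups overlapped, and the log2 fold change was 0.07 (95% interval −0.01 to 0.16). Its muscle-type splice forms share most exons and are summed in this table. Ldha, which makes lactate and is a textbook HIF target, was at 745, 750.2 and 741 FPKM against 747, 747 and 749 FPKM. Its log2 fold change was 0.00, with a 95% interval from −4.04% to 4.84%. Gapdh was at 292, 297 and 310.3 FPKM against 301, 298 and 301 FPKM, with a 95% interval from −5.09% to 5.7%. In both genes the groups overlapped. Ldhb, the isozyme that favours the reverse reaction, stood at 148 ± 7.29 and 159 ± 5.22 FPKM (SD, n = 3 each; log2 fold change 0.10, adjusted p = 0.289 by limma).

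Low enzyme rows gave wide intervals. Aldoc, the brain aldolase, had 58 to 115 fragments and a log2 fold change of 0.37 (95% interval −0.14 to 0.88). The second Aldoa row, which lies just beside the first on chromosome 7, had 40 to 71 fragments and a log2 fold change of −0.04 (95% interval −0.53 to 0.45). Eno2 had 1 to 5 fragments in each library, too few for a fold change. Sequence sharing limits several abundant rows, since pseudogenes and paralogues carry copies of these transcripts. The share of 31-base stretches that also occur in another gene was 68.3% for Pgk1, 62.6% for Gapdh, 53.5% for Eno1 and 42.1% for Pgam1, so their values are less certain. The same limit holds to a smaller degree for other enzymes. The share was 36.6% for Gpi1, 34.8% for Pkm, 33% for Ldhb, 22.3% for Ldha, 22% for Aldoa (first row), 16.8% for Tpi1 and 15.9% for Pfkp. It was 0.236% for Hk2, 0.172% for Pfkfb4 and 0.193% for P4ha1.

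**Figure D3:**
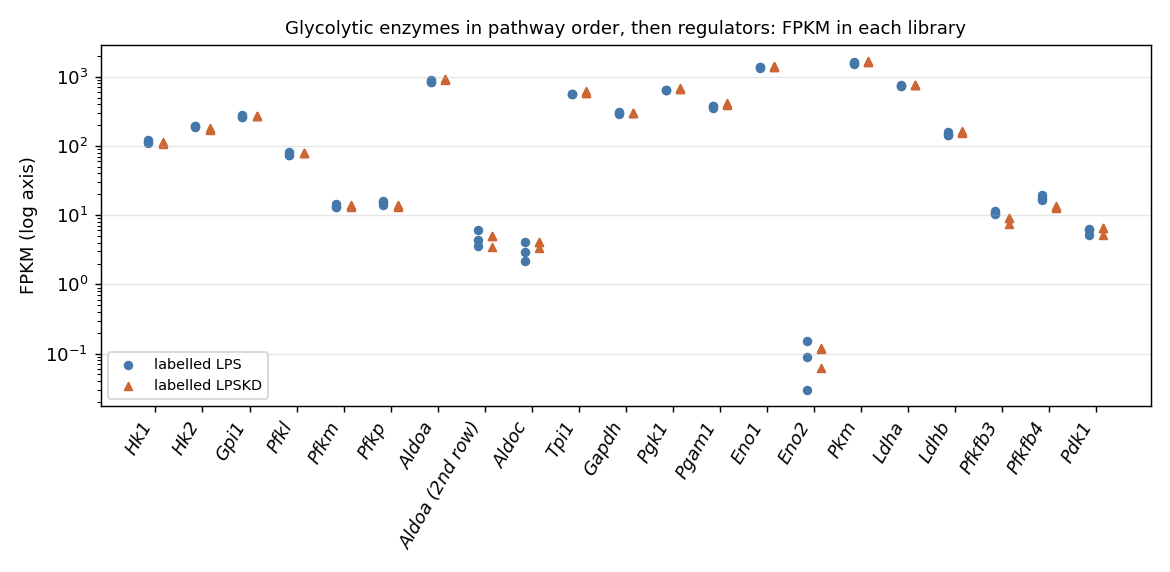
FPKM of the 18 enzyme rows, in pathway order, and the 3 regulators in each library, on a log axis, with circles for the libraries labelled LPS and triangles for those labelled LPSKD. Pkm and Eno1 are the highest in every library, Eno2 is close to 0.1 FPKM, and Pfkfb3 and Pfkfb4 show triangles below circles.

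A division of the pathway made after the values were seen showed how the enzymes lay on either side of the committed step. Of the 8 genes up to phosphofructokinase together with Pfkfb3 and Pfkfb4, 5 had lower and 3 had higher means in the LPSKD libraries, with a median log2 fold change of −0.10. The regulators Pfkfb4 and Pfkfb3, which catalyse no step of the pathway, had the lowest values in this group (−0.45 and −0.35). Its enzymes alone had no common direction. Hk1, Hk2 and Pfkp had lower means (−0.06, −0.13 and −0.18), and Gpi1, Pfkl and Pfkm had higher means (0.03, 0.04 and 0.02). Of the 11 tested rows from aldolase to lactate dehydrogenase, 10 had higher means and 1 had a lower mean, with a median of 0.07. Quantile normalization kept the first count at 5 lower and 3 higher and turned the second into 7 higher and 4 lower. No test was made of this division, because it was drawn from the same values.

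Ratios of isozymes within a library do not depend on how the libraries were scaled. In the libraries labelled LPS, Pfkp stood at 0.19, 0.19 and 0.219 of the level of Pfkl, and in the LPSKD libraries at 0.165, 0.181 and 0.17. The groups did not overlap, and the exact permutation test gave the smallest p that 3 against 3 allows (two-sided p = 0.1, adjusted p = 0.375 over the 5 ratios). Hk2 was 1.66 ± 0.0668 and 1.58 ± 0.0468 times Hk1 (SD, n = 3 each; exact permutation p = 0.3). Ldha was 5.03 ± 0.217 and 4.69 ± 0.151 times Ldhb (SD, n = 3 each; exact permutation p = 0.2). Both pairs of groups overlapped. Aldoc was 0.00356 ± 0.001 and 0.00426 ± 0.000555 of Aldoa (SD, n = 3 each; exact permutation p = 0.3), and the ratio of Eno2 to Eno1 rested on the few Eno2 fragments (exact permutation p = 0.8). None of the 5 ratios could have passed a threshold of 0.05 in this design.

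**Figure D4:**
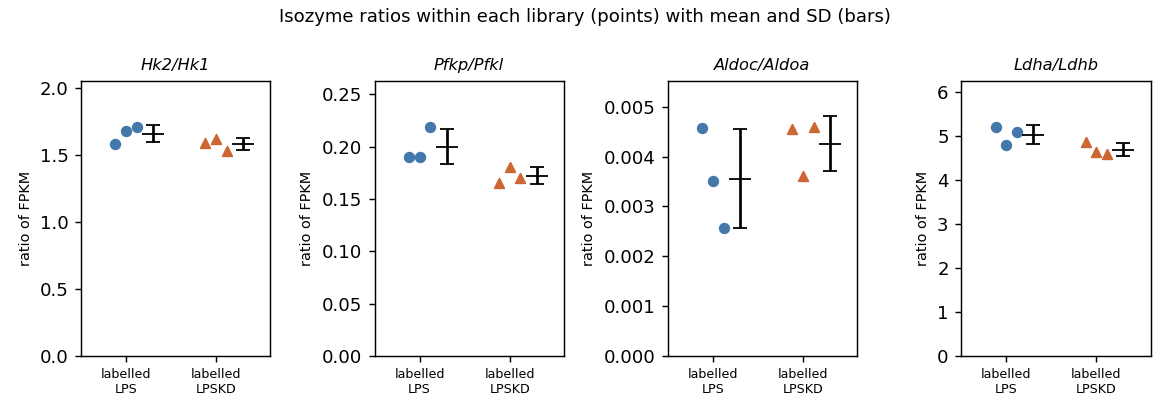
Ratio of FPKM between 4 pairs of isozymes within each library (points), with the mean and SD of each group of 3 as bars and axes that start at 0. The Pfkp to Pfkl ratio is the one whose groups do not overlap, at 0.19 to 0.219 in the libraries labelled LPS and 0.165 to 0.181 in those labelled LPSKD.

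The transcripts of HIF and its oxygen sensors did not pass the test. Hif1a, the alpha subunit made in most cells, was at 122, 119 and 125 FPKM in the libraries labelled LPS and at 118, 115 and 115 FPKM in those labelled LPSKD. The LPSKD libraries were all below the LPS libraries by a small margin (log2 fold change −0.08, 95% interval −0.16 to 0.01, adjusted p = 0.316 by limma). Epas1, the alpha subunit HIF-2, was at 1.33, 0.842 and 0.25 FPKM against 1.24, 1.54 and 1.51 FPKM. With 16 to 101 fragments and an LPS group that ran from 0.25 to 1.33 FPKM, its log2 fold change of 0.97 had a 95% interval from −0.14 to 2.07 (adjusted p = 0.349 by limma). The value was 0.39 without replicate 3 labelled LPS, the lowest library. Hif1a was thus present at a far higher level per length than Epas1 in each library.

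The prolyl hydroxylases mark the alpha subunits for destruction. Egln1, the main sensor in most cells, stood at 28.1 ± 1.66 and 30.6 ± 1.88 FPKM (SD, n = 3 each; log2 fold change 0.13, adjusted p = 0.382 by limma). Egln3, which HIF itself induces, was at 1.68, 2.3 and 1.66 FPKM against 1.56, 2.08 and 1.43 FPKM, from 26 to 41 fragments, with a log2 fold change of −0.14 and a 95% interval from −0.66 to 0.37.

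The other HIF targets had no common direction. Of the 10, P4ha1 was called (10%, against 3.23% of all tested genes) and 9 were not. Groups were apart for 4 of the 10 (40%, against 23.8% of all tested genes). In these targets 6 means were higher and 4 lower, and the median log2 fold change was 0.04. Among all tested genes 5569 means were higher and 6154 lower. Vegfa, the main growth factor of blood vessels, was at 87.4, 95.3 and 94.9 FPKM in the libraries labelled LPS and 81.4, 80.4 and 83.8 FPKM in those labelled LPSKD. All LPSKD libraries were below all LPS libraries, a difference of −11.5% with a 95% interval from −17.6% to −4.81% (log2 fold change −0.18, adjusted p = 0.09 by limma). Without replicate 1 labelled LPS, the lowest of the LPS libraries, the log2 fold change was −0.22 and passed the test (adjusted p = 0.0311 by limma). This was the 1 call among the 6 omissions of a library, where the adjusted p reached 0.262 by limma. None of the 10 alternative fits of all libraries called Vegfa (adjusted p = 0.0548 to 0.203 by limma). Bnip3, which targets mitochondria for removal, was at 17.9, 19.8 and 17.7 FPKM against 20, 22.8 and 21.7 FPKM. Its groups were apart by a narrow margin (log2 fold change 0.21, 95% interval 0.05 to 0.38, adjusted p = 0.182 by limma), and 70.7% of its 31-base stretches also occur in other genes.

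The remaining 7 targets gave no difference that passed the test. Mxi1, an antagonist of Myc, had groups apart at 40.4 ± 0.818 and 43.1 ± 0.87 FPKM (SD, n = 3 each; log2 fold change 0.09, adjusted p = 0.308 by limma). Ddit4, an inhibitor of mTOR signalling and the most abundant of the 10, stood at 291 ± 18.8 and 298 ± 6.55 FPKM, and Ndrg1, a differentiation and stress gene, at 127 ± 8.68 and 132 ± 6.79 FPKM (SD, n = 3 each). Kdm3a, a histone demethylase, stood at 23.8 ± 0.369 and 23.1 ± 0.697 FPKM (SD, n = 3 each). Adrenomedullin (Adm), a vasodilator peptide, and Ankrd37 had 20 to 54 fragments per library, with 95% intervals from −0.63 to 0.54 and from −0.69 to 0.51 on the log2 scale. Among the targets, levels per length thus ran from Ddit4, Ndrg1 and Vegfa at the top to Ankrd37 and Adm, which differed from each other by less than their spread.

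**Figure D5:**
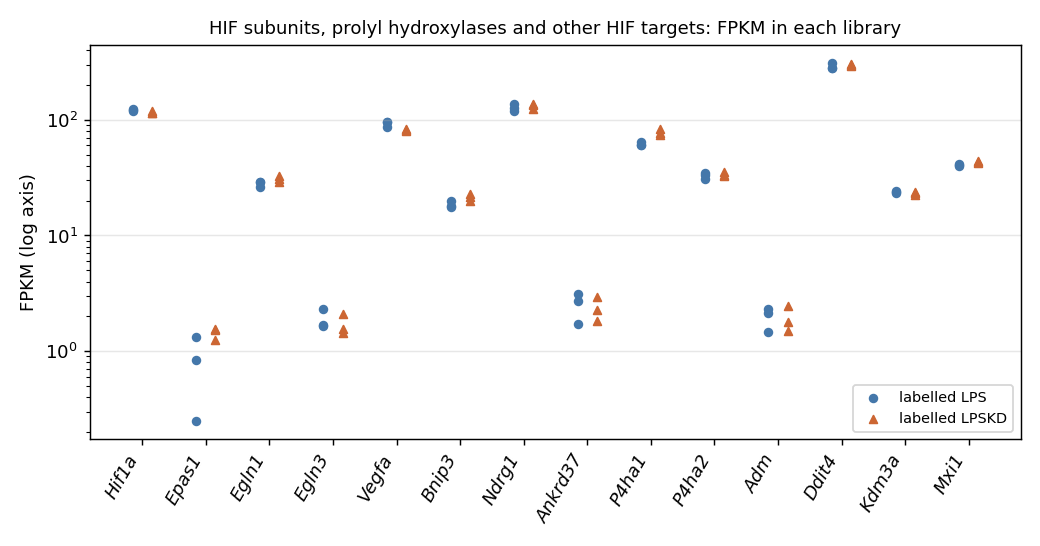
FPKM of the 4 HIF subunits and prolyl hydroxylases and the 10 other HIF targets in each library, on a log axis, with circles for the libraries labelled LPS and triangles for those labelled LPSKD. The triangles of P4ha1, at 74.2 to 83.6 FPKM, stand above its circles, at 60.1 to 64.6 FPKM, as do those of Bnip3 and Mxi1 by smaller differences. Those of Vegfa, at 80.4 to 83.8 FPKM, stand below its circles, at 87.4 to 95.3 FPKM, as do those of Hif1a by a small margin. Epas1 has the widest spread of circles, at 0.25 to 1.33 FPKM.

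Around the members, 99 further genes of sugar metabolism and the HIF pathway were read from 7 lists, of which 70 passed the filter, 3 rose and 1 fell (5.71%, against 3.23% of all tested genes). Bhlhe40, a repressor that hypoxia induces, was at 207, 199.9 and 201 FPKM in the libraries labelled LPS against 179.6, 176 and 186 FPKM in those labelled LPSKD and fell (log2 fold change −0.17, adjusted p = 0.0438 by limma). It came from a list of further HIF targets, of which 20 were tested, 1 rose and 1 fell (10%). That list leaned the other way, with 15 higher and 5 lower means and a median log2 fold change of 0.06. Car9, a classic HIF target, had at most 14 fragments in a library. The call of Bhlhe40 was lost when any 1 library was left out, with adjusted p of 0.0694 to 0.165 by limma. Without the variance trend in limma it was lost too, as were those of Pgd and Elob (adjusted p = 0.158, 0.0698 and 0.103). Of the 10 alternative fits of all libraries, 7 called Bhlhe40, while 9 called Pgd and 9 called Elob.

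Of 7 genes of the pentose phosphate pathway, which draws on glucose 6-phosphate to make NADPH, 1 rose and 6 did not pass. The share called was 14.3%, against 3.23% of all tested genes. Pgd, its second dehydrogenase, rose from 215, 202 and 203 FPKM in the libraries labelled LPS to 245, 253 and 245 FPKM in those labelled LPSKD (log2 fold change 0.26, adjusted p = 0.00748 by limma). With each library left out in turn, Pgd was called in 6 of 6 fits (adjusted p = 0.00408 to 0.0489 by limma), though not without the variance trend. The first dehydrogenase G6pdx and transketolase Tkt had groups apart as well, at log2 fold changes of 0.15 and 0.14 with adjusted p of 0.0828 and 0.105 by limma. Of the HIF machinery outside the members, 10 genes were tested and 1 rose (10%). This was Elob, a subunit of the ligase complex that carries Vhl, from 158, 157 and 163 to 193, 179.6 and 187 FPKM (log2 fold change 0.23, adjusted p = 0.0185 by limma). Its call was lost without replicate 2 or 3 labelled LPS or replicate 1 or 3 labelled LPSKD (adjusted p = 0.0506, 0.0579, 0.0838 and 0.0878 by limma). Arnt, the partner of both alpha subunits, and Vhl, which recognises hydroxylated HIF, had log2 fold changes of 0.01 and −0.14 with adjusted p of 0.985 and 0.517 by limma.

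None of the 5 tested genes of glucose and lactate transport, 12 side enzymes and isozymes, 11 genes of pyruvate entry into mitochondria and 5 genes of gluconeogenesis passed the test. Slc2a1, the main glucose importer here, was at 137, 131 and 129.7 FPKM against 140.2, 142 and 137 FPKM (log2 fold change 0.08, adjusted p = 0.308 by limma), while the hypoxia-inducible importer Slc2a3 had 1 to 6 fragments. The lactate carrier Slc16a1 had a log2 fold change of 0.01, and the HIF-induced lactate exporter Slc16a3 had 0.63 at 30 to 74 fragments (adjusted p = 0.923 and 0.244 by limma). Pck1, the gluconeogenic marker of the proximal tubule, ran from 2.87 to 9.94 FPKM over the 6 libraries with no separation of the groups (log2 fold change −0.01).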

How the data were processed

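Poly(A) RNA was sequenced as paired ends on an Illumina instrument. The authors deposited FPKM values, 1 per gene and library, with no pooling. The submitters' processing notes name HISAT2 2.0, StringTie 1.3.0 and Bowtie 0.12.2 and the builds mm8 and GRCh38.p13 (a human build), without roles; gene models and filters are not given in the sources used here. Of the 16837 genes above 0, 97.7% gave whole fragments (tolerance 0.001) at the coding length in GENCODE M21, so FPKM are per coding length and untranslated ends and splice forms cannot be read from them. Whether counting used the strand is not given, so antisense fragments cannot be told apart.

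Tests used limma 3.58.1 in R 4.3.3 (eBayes with trend) applied to log2(FPKM + 0.1) where the mean reached 0.5 FPKM, with Benjamini-Hochberg adjustment over all 11723. This scale understates changes of low genes. Isozyme ratios used exact permutation tests over 20 assignments. In data simulated with a coefficient of variation of 10%, the fit recovered 13.8% of genes changed 1.25-fold, 77.5% of those changed 1.5-fold and 90.6% of those changed 2-fold. Abundant members such as Ldha varied less than this between replicates. Low members such as Epas1, at 0.808 ± 0.542 FPKM in the libraries labelled LPS (SD, n = 3), varied more. These shares apply to neither kind. Alternatives were pseudocounts of 1 and 0.01, filters at 1 and 0.1 FPKM and none, quantile normalization, median centring, no trend, a replicate block, voom on recovered fragments, and omission of each library. Sharing of 31-base stretches was searched in 141767 transcripts. Replicates differed by more than counting noise (chi-square per gene 4.1 to 11). Members, lists, the rule for named genes (members with an unadjusted p under 0.05 plus a fixed set shown library by library; of other lists, called genes plus a fixed set) and tests were chosen with earlier results of these data known. Pfkfb1, Pfkfb2, G6pdx and Tkt were named after their values were seen. Some genes of the lists are not reported here by name.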

Additional observations from a re-analysis of the deposited data

How the results depend on the processing

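The directions of P4ha1 and Pfkfb4 held under every alternative run, with log2 fold changes of 0.28 to 0.37 and −0.49 to −0.38 when 1 library was left out. The count of 2 members called became 0 without the variance trend (adjusted p = 0.0839 for P4ha1 and 0.0578 for Pfkfb4 by limma), 1 with the replicate number as a block (P4ha1 0.0507) and 0 to 3 without 1 library. Hypoxia members called went from 1 to 0 without trend and 0 with the block, and to 0 to 2 without 1 library. Glycolytic enzymes called went from 0 to 1 with voom and stayed at 0 without 1 library. The 379 genes called in all became 140 without trend, 213 with the block, 598 with voom and 158 to 357 without 1 library, and the 4 other pathway genes became 2 without trend, 3 with the block, 6 with voom and 2 to 3 without 1 library. Same-numbered libraries did not deviate together (correlations −0.016, −0.00388 and −0.0426), so the numbers were not taken to pair the cultures.

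Without 1 library the median log2 fold change lay at 0.02 to 0.07 for the enzymes and 0.01 to 0.08 for the hypoxia members, and Stat3 lay between −0.06 and 0.04. Quantile normalization reversed the second Aldoa row (0.01), Gapdh (−0.04), Pgk1 (−0.01), Eno1 (−0.01), Ldha (−0.01) and Adm (0.03). Leaving out 1 library also turned the sign of Pfkm (−0.01 to 0.08), the second Aldoa row (−0.21 to 0.16), Gapdh (−0.02 to 0.03), Pdk1 (−0.04 to 0.14), Egln3 (−0.30 to 0.00), Ankrd37 (−0.34 to 0.08), P4ha2 (−0.01 to 0.07), Adm (−0.24 to 0.11) and the Eno2 to Eno1 ratio (−0.35 to 0.84). The cause was not tested. In the data simulated with a coefficient of variation of 10%, 13.8% of genes changed 1.25-fold and 77.5% of those changed 1.5-fold were called at this group size. These shares do not describe members with a smaller spread, such as Ldha at 745 ± 4.66 and 748 ± 1.49 FPKM (SD, n = 3 each). Nor do they describe members with a larger spread, such as Epas1 at 0.808 ± 0.542 FPKM in the libraries labelled LPS (SD, n = 3). In the real libraries a smaller change was called for Pgd (1.2-fold).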
